A study of Mus musculus with 9 samples.

Results

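The genes described here build the interstitial matrix of the heart, the meshwork of collagen, elastic fibres, proteoglycans and glycoproteins between muscle cells. They were chosen by symbol as 47 named genes for fibrillar and other collagens, elastic fibre proteins, crosslinking and processing enzymes, proteoglycans and matricellular proteins, and 47 of 47 were among the 13795 genes of the deposited table. RNA sequencing was done on heart tissue of C57BL/6 mice, in 4 samples given vehicle and 5 samples given oxaliplatin at 10 mg/kg, with collection at 8 weeks of treatment. Oxaliplatin is a platinum drug used against cancer. The labels give the samples as separate but do not tie them to animals, and age, sex and dosing schedule were not stated there. Since nothing ties a sample to its own animal, p-values cover sample-to-sample spread that could be technical.

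Interstitial matrix is made mostly by fibroblasts, with shares from smooth muscle, endothelial and mesothelial cells. Procollagen chains are hydroxylated and folded into triple helices in the cell, trimmed outside it, gathered into fibrils, and crosslinked by lysyl oxidases. Fibronectin, fibrillin microfibrils, proteoglycans and matricellular proteins guide where fibrils and elastic fibres form, and many of these genes are known to be expressed more strongly in developing, injured or fibrotic heart.

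Levels are normalized counts, the authors' read counts per gene scaled between samples, and lists of values are always in the order vehicle 1 to 4 and oxaliplatin 1 to 5. A fold change is the difference in mean log2(normalized count + 1), oxaliplatin minus vehicle. A gene passed, and is said to have risen or fallen, where its limma p, adjusted by Benjamini-Hochberg over 13788 genes, was under 0.05. Every gene of the 47 entered the test, with a mean of at least 10 normalized counts over the samples. Totals ran from 29.4 to 36.9 M (M for mega, 1e+06) normalized counts per sample, and low values put the depth at an estimated 28.5 to 36.2 M reads. The heart label was checked on 10 cardiomyocyte markers, of which 10 were measured, summing to 1512830 to 1876860 normalized counts in vehicle and 1193880 to 1688430 in oxaliplatin samples.

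Of the 47 matrix genes 17 rose with oxaliplatin and 0 fell, where 9.23% of all genes tested rose and 5.03% fell. The 47 were chosen with earlier results of these data known, so the contrast with all genes is a description, not independent support. The genes that rose were fibronectin (Fn1), elastic fibre genes (Eln, Fbn1, Fbln2, Fbln5), the lysyl oxidases Lox, Loxl2 and Loxl3, the proteoglycans Bgn and Vcan, the matricellular genes Sparc, Sparcl1, Tnc and Cthrc1, the processing genes Plod1 and Pcolce, and a single collagen chain, Col5a2. The chains of collagens I and III had fold changes of similar sign but groups that overlapped, and did not pass. The median log2 fold change over the 47 genes was 0.74, against -0.02 over all genes tested, and 42 were above 0. Each oxaliplatin sample lay above each vehicle sample for 14 of the 47 (8.99% of all genes tested), and below for 0 (5.93%). Cthrc1 is in the deposited table through its oxaliplatin values alone, and without it 16 of 46 rose, 13 did not overlap and the median was 0.68. In whole tissue, more cells of a type and more RNA per cell cannot be told apart.

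**Figure D1:**
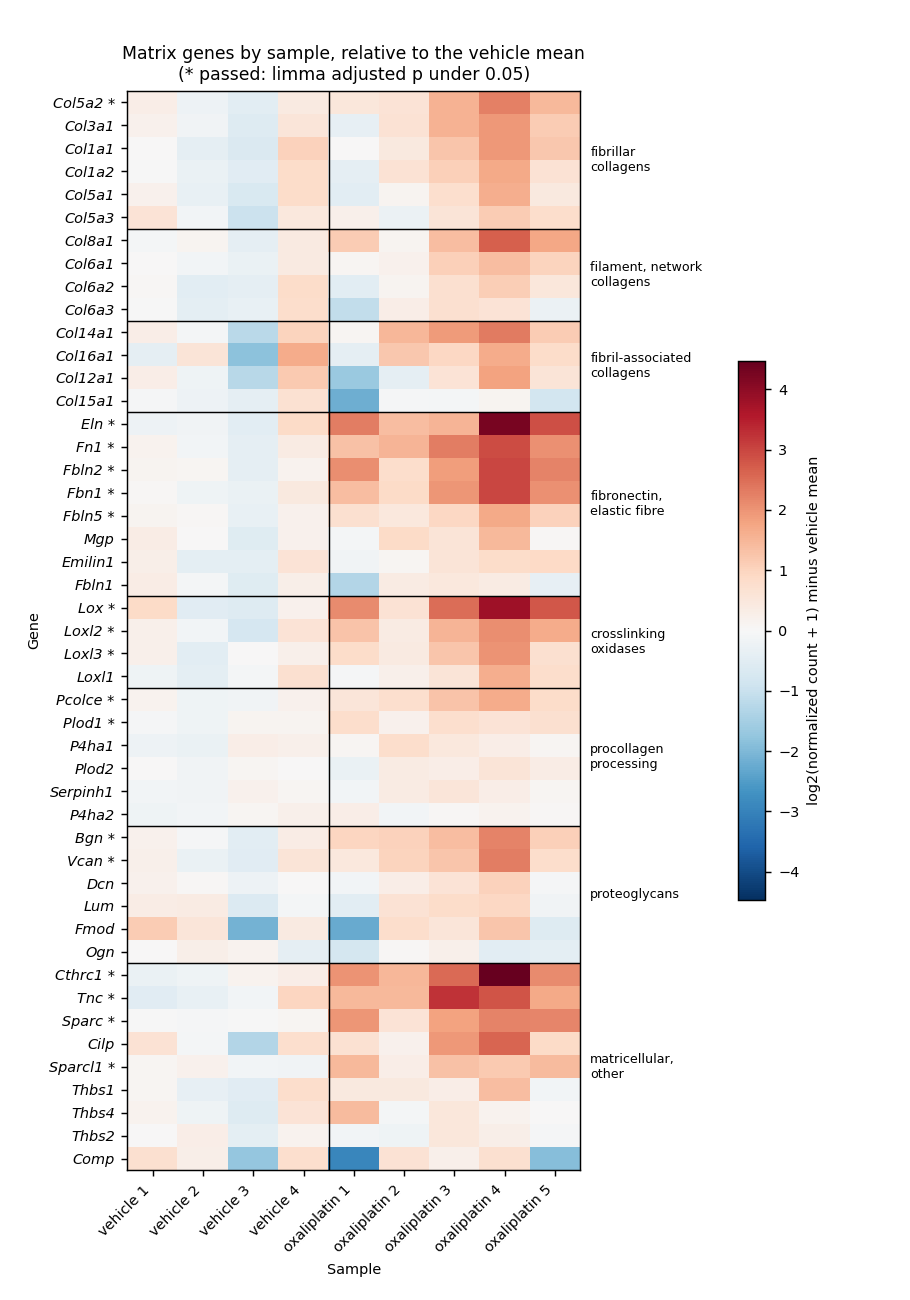
Log2(normalized count + 1) of the 47 matrix genes (rows, by role) in the 9 samples (columns), each as the difference from the vehicle mean of its gene, with red higher and blue lower. Genes with an asterisk passed in limma (17), and oxaliplatin 4 is the highest sample for 33 of the 47 genes.

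Of 6 fibrillar collagen genes, which form the load-bearing fibrils, 1 rose, Col5a2, and the chains of collagens I and III did not pass. Col1a1 stood at 1774, 1342, 1138 and 3595 normalized counts in vehicle and at 1779, 2411, 4139, 6785 and 4081 in oxaliplatin samples. Col1a2 stood at 2292, 1898, 1631 and 4098 normalized counts in vehicle and at 1776, 3655, 4883, 7593 and 3594 in oxaliplatin samples. Col3a1 stood at 2305, 1809, 1336 and 2959.9 normalized counts in vehicle and at 1581, 3141, 5947, 7677 and 4413 in oxaliplatin samples. For these chains of collagens I and III, vehicle 4 was the highest vehicle sample and oxaliplatin 1 lay within the range of the vehicle samples, so the groups overlapped. Col1a1 had a log2 fold change of 0.97 (95% interval -0.07 to 2.01, adjusted p = 0.204). Col1a2 differed by 0.74 (-0.21 to 1.68, adjusted p = 0.285) and Col3a1 by 0.98 (-0.06 to 2.02, adjusted p = 0.197). These intervals hold 0 as well as large rises, so neither a rise nor its absence was shown. Without oxaliplatin 1, Col3a1 passed (1.32, adjusted p = 0.0263).

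Col5a2, a chain of collagen V, the minor collagen that starts and limits fibril growth, was the fibrillar gene that rose. Col5a2 stood at 471, 328, 281 and 516 normalized counts in vehicle and at 557, 585, 1150.1, 1865 and 1055 in oxaliplatin samples. The 5 oxaliplatin samples all lay above the vehicle samples, oxaliplatin 1 and 2 narrowly (log2 fold change 1.28 with a standard error of 0.36, adjusted p = 0.0422). The call rested on single samples, since without vehicle 1, vehicle 2, vehicle 3, vehicle 4, oxaliplatin 3 and oxaliplatin 5, each left out in turn, adjusted p was 0.0537 to 0.116. With the replicate number as a block it was 0.0696, and with voom on estimated reads 0.0585. Its partner chain Col5a1 ran from 103 to 293 in vehicle and 118 to 509.6 in oxaliplatin samples (0.50, adjusted p = 0.47). Col5a3, a further collagen V chain, ran from 37.6 to 115 in vehicle and 61.6 to 166 in oxaliplatin samples and did not pass (0.49). Col3a1 and Col5a2 are neighbours on chromosome 1, at 45311538 to 45349706 and 45374321 to 45503282 in GENCODE M21 on GRCm38.

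Of 4 filament and network collagens 0 passed. Collagen VI forms beaded filaments around cells, and its chains had unequal fold changes of 0.74 for Col6a1, 0.40 for Col6a2 and 0.05 for Col6a3. Col6a1 stood at 1305, 1163, 1035 and 1681 normalized counts in vehicle and at 1341, 1469.9, 2692, 3288 and 2553 in oxaliplatin samples. Col6a2 stood at 593, 413, 432 and 1008 normalized counts in vehicle and at 415, 624, 949, 1236 and 808 in oxaliplatin samples. Col6a3 stood at 304, 226, 242 and 523 normalized counts in vehicle and at 143, 372, 497, 469 and 252 in oxaliplatin samples. Col6a1 lay above every vehicle sample in oxaliplatin 3, 4 and 5, and Col6a2 in oxaliplatin 4, while Col6a3 was highest in vehicle 4 and lowest in oxaliplatin 1. Col6a1 had an adjusted p of 0.0934, and passed without oxaliplatin 1 (0.0278) or without oxaliplatin 2 (0.0411). Col8a1 stood at 642, 745, 513 and 894 normalized counts in vehicle and at 1508, 736, 1797, 4410 and 2252 in oxaliplatin samples. Col8a1, a short-chain network collagen of vessel walls and valves, was above the vehicle range in every oxaliplatin sample but oxaliplatin 2 (log2 fold change 1.41 with a standard error of 0.45, adjusted p = 0.0746). Without oxaliplatin 2 it passed (1.73, adjusted p = 0.00623).

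Fibril-associated collagens, which sit on fibril surfaces, and the multiplexin Col15a1, found at the border of basement membranes, did not pass either. Col14a1 stood at 151, 117, 52.7 and 249 normalized counts in vehicle and at 133, 345, 461, 627 and 273 in oxaliplatin samples. Oxaliplatin 1 lay within the vehicle range and the other oxaliplatin samples above it (log2 fold change 1.39 with a standard error of 0.52, adjusted p = 0.114). Without oxaliplatin 1 Col14a1 passed (adjusted p = 0.0373). Col15a1 stood at 409.9, 361, 324 and 677 normalized counts in vehicle and at 93.2, 408, 402, 458 and 239 in oxaliplatin samples. Col15a1 was the collagen with a negative fold change (-0.60, adjusted p = 0.431), and oxaliplatin 1 had less than any other sample. Col12a1 stood at 39.4, 27.9, 12.9 and 72.6 normalized counts in vehicle and at 9.56, 23.8, 49.1, 115 and 48.4 in oxaliplatin samples. Col16a1 stood at 13.1, 26.8, 4.30 and 58.5 normalized counts in vehicle and at 13.1, 42.3, 35.0, 58.5 and 32.3 in oxaliplatin samples. Col12a1 and Col16a1 were low, and their groups overlapped widely (0.18 and 0.85, adjusted p = 0.885 and 0.41).

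Fibronectin and elastic fibre genes rose in 5 of 8. Fn1 stood at 574, 481, 392 and 676 normalized counts in vehicle and at 1289, 1493, 2524, 3933 and 2142 in oxaliplatin samples. Fn1, a glycoprotein that cells assemble into a provisional scaffold for collagen, went from 531 ± 122 to 2276 ± 1050.2 (SD; 4 and 5 samples) in normalized counts, a 4.04-fold change (log2 fold change 2.01 with a standard error of 0.30, adjusted p = 0.0029). The lowest oxaliplatin sample was well above the highest vehicle sample. Fn1 lies on chromosome 1, 71585520 to 71653200, and kept its call without each sample in turn (adjusted p at most 0.0138).

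Fbn1 stood at 441, 373, 343 and 576 normalized counts in vehicle and at 1101, 764, 1667, 3403 and 1738 in oxaliplatin samples. Fbn1, fibrillin 1 of the microfibrils that carry elastin, was higher in all 5 oxaliplatin samples than in any vehicle sample (log2 fold change 1.84 with a standard error of 0.39, adjusted p = 0.0139). Eln stood at 226, 236, 191 and 483 normalized counts in vehicle and at 1302, 697, 765, 4985 and 1950.2 in oxaliplatin samples. Eln, elastin itself, had the largest fold change of the elastic fibre genes and the widest spread, with oxaliplatin 4 far above the rest (log2 fold change 2.46 with a standard error of 0.60, adjusted p = 0.0312). The Eln call was lost without vehicle 1, vehicle 2, vehicle 3, oxaliplatin 1 and oxaliplatin 5, each left out in turn (adjusted p 0.0562 to 0.0914), and without oxaliplatin 4 it held at a log2 fold change of 2.02 (adjusted p = 0.0159). With voom on estimated reads Eln had an adjusted p of 0.0572, and with the erythroid marker score as a covariate 0.154.

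Fbln2 stood at 2960.3, 2879, 2059 and 3002 normalized counts in vehicle and at 11416, 4685, 9786, 21466 and 12509 in oxaliplatin samples. Fbln5 stood at 806, 761, 581 and 843 normalized counts in vehicle and at 1222, 1017, 1411, 2414 and 1523 in oxaliplatin samples. Both fibulins, which bind elastin and its microfibrils, rose with groups that did not overlap, Fbln2 by 1.99 on the log2 scale (standard error 0.36, adjusted p = 0.00734) and Fbln5 by 0.97 (0.21, adjusted p = 0.0114). Their relative Fbln1 showed no such difference, at 1611 to 2975 in vehicle and 938 to 3238 in oxaliplatin samples (-0.10, interval -0.95 to 0.75, adjusted p = 0.89). Emilin1, an elastic fibre glycoprotein gene, ran from 190.4 to 396 in vehicle and 231 to 477 in oxaliplatin samples (0.44, adjusted p = 0.312). Mgp, an inhibitor of matrix mineralization, ran from 3809 to 6913 in vehicle and 5235 to 15207 in oxaliplatin samples (0.58, adjusted p = 0.238). The annotated exons of Fbn1 share 2442 of 12004 bases with Gm9913, and without a stated strand setting reads of the pair cannot be told apart.

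**Figure D2:**
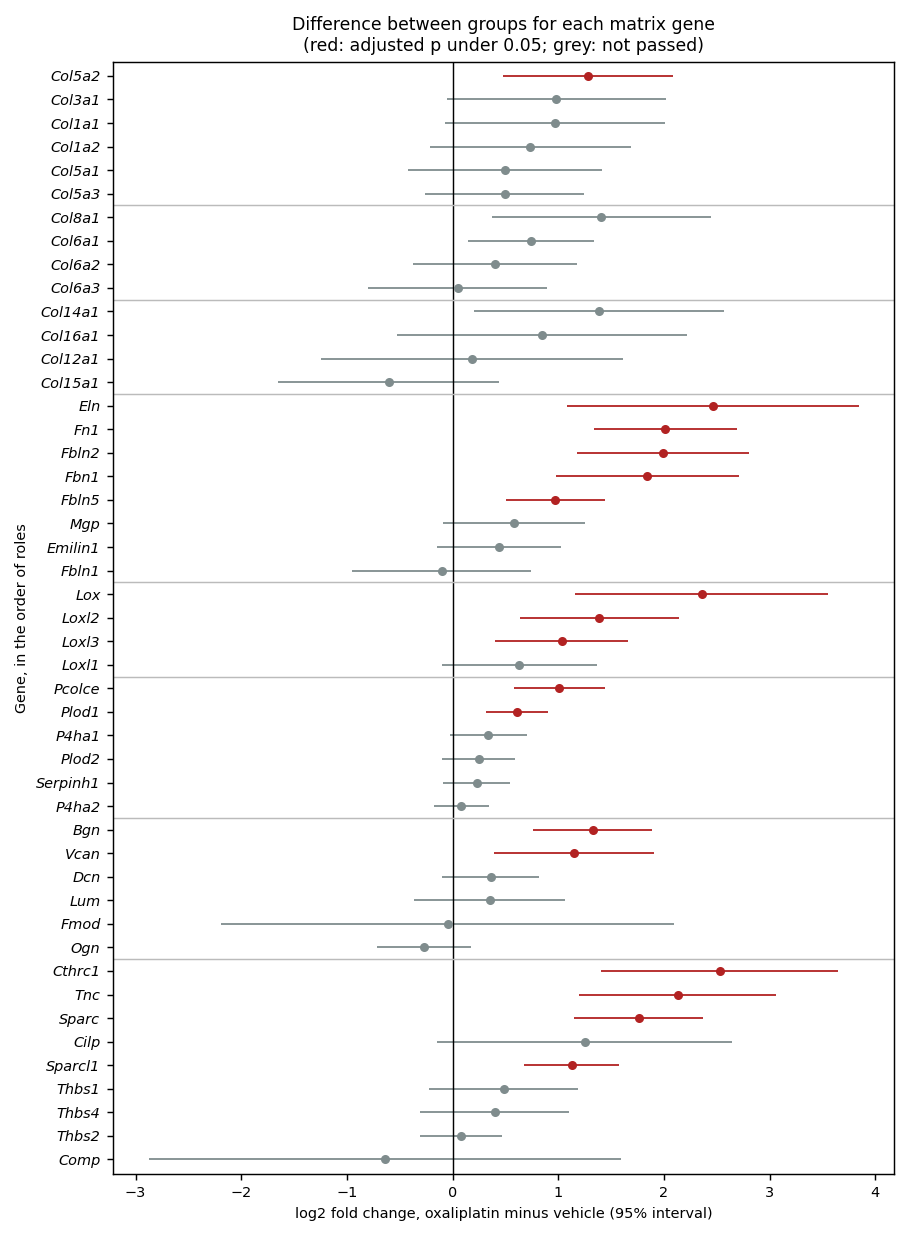
Log2 fold change of each matrix gene, oxaliplatin minus vehicle (horizontal axis), with the 95% interval from limma, genes in order of role. Red points passed (17) and grey points did not (30), and the intervals of Comp and Fmod are among the widest.

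Lysyl oxidases, the copper enzymes that start the crosslinks of collagen and elastin, rose in 3 of 4. Lox stood at 45.4, 16.8, 16.1 and 28.2 normalized counts in vehicle and at 108, 38.8, 143, 346 and 172 in oxaliplatin samples. Lox was low in vehicle samples, and oxaliplatin 2 fell inside their range while the other oxaliplatin samples lay above it (log2 fold change 2.36 with a standard error of 0.54, adjusted p = 0.0158). Loxl2 stood at 128, 101, 65.0 and 169 normalized counts in vehicle and at 268, 141, 317, 469 and 347 in oxaliplatin samples. Loxl3 stood at 221, 137, 193 and 225 normalized counts in vehicle and at 333, 249, 449, 768 and 315 in oxaliplatin samples. Loxl2 rose by 1.39 (standard error 0.34, adjusted p = 0.0207), with oxaliplatin 2 below vehicle 4. Loxl3 rose by 1.03 (standard error 0.29, adjusted p = 0.035) and its groups did not overlap, though 535 of its 4098 exonic bases are shared with Htra2. Loxl1 stood at 258, 216, 274 and 481 normalized counts in vehicle and at 283, 343, 436, 911 and 501 in oxaliplatin samples. Loxl1, known for its part in elastic fibre upkeep, did not pass (0.63, adjusted p = 0.241), but did with the replicate number as a block (0.0435).

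Single samples decided some of these calls. Lox was lost without vehicle 2 and vehicle 3 (adjusted p 0.0579 to 0.0616) and Loxl2 without vehicle 2 and vehicle 3 (0.0629 to 0.0646). Loxl3 was lost without vehicle 1, vehicle 2, vehicle 3, vehicle 4 and oxaliplatin 3 (0.0518 to 0.102), each left out in turn. With voom on estimated reads adjusted p was 0.126 for Lox and 0.0641 for Loxl3, and Loxl2 passed (0.0454). Loxl3 also missed with the erythroid marker score as a covariate (0.0538) and in limma without trend and robust moderation (0.0579).

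Procollagen processing genes rose in 2 of 6. Pcolce stood at 3374, 2631, 2699 and 3389.6 normalized counts in vehicle and at 4421, 5054, 7218, 9387 and 5359.5 in oxaliplatin samples. Pcolce, which speeds removal of the C-terminal propeptide, had the smallest p of this role and groups that did not overlap (log2 fold change 1.01 with a standard error of 0.20, adjusted p = 0.00605). Plod1 stood at 2842, 2570.3, 3147 and 3155 normalized counts in vehicle and at 4980.4, 3303, 4940.3, 4451 and 4843 in oxaliplatin samples. Plod1, a lysyl hydroxylase that prepares collagen for crosslinking, rose by a smaller amount (log2 fold change 0.61 with a standard error of 0.14, adjusted p = 0.0105). P4ha1 stood at 1024, 985, 1464 and 1395 normalized counts in vehicle and at 1258, 2063, 1650.3, 1471 and 1266 in oxaliplatin samples. Serpinh1 stood at 11229.7, 11045, 14267 and 13198 normalized counts in vehicle and at 11371, 15912, 17820, 15155 and 13053 in oxaliplatin samples. P4ha1, a catalytic subunit of collagen prolyl 4-hydroxylase, and Serpinh1, the collagen chaperone HSP47, did not pass (0.34 and 0.23, adjusted p = 0.208 and 0.331).

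The intervals were narrow for P4ha2 and Serpinh1, so large changes of both can be bounded. For P4ha2, the other catalytic subunit, the 95% interval ran from -0.18 to 0.34 on the log2 scale, and for Serpinh1 from -0.09 to 0.55. Levels of P4ha2 ran from 1648 to 2199.5 in vehicle and 1720 to 2309 in oxaliplatin samples. Plod2, the lysyl hydroxylase of collagen telopeptides, ran from 328 to 382 in vehicle and 294 to 536 in oxaliplatin samples (0.25, adjusted p = 0.335), and passed without oxaliplatin 1 (0.0498).

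Proteoglycans rose in 2 of 6, and among the small leucine-rich ones, which coat collagen fibrils, Bgn was the gene that rose. Bgn stood at 8773, 7357, 5467 and 9558 normalized counts in vehicle and at 14724, 15391, 19965, 35542 and 15956 in oxaliplatin samples. Bgn, biglycan, went from 7789 ± 1796 to 20315 ± 8753 (SD; 4 and 5 samples) in normalized counts (log2 fold change 1.33 with a standard error of 0.26, adjusted p = 0.00676), and every oxaliplatin sample exceeded every vehicle sample. Dcn stood at 18994, 17295, 14248 and 16787 normalized counts in vehicle and at 15549, 20575, 25739, 34497 and 16119 in oxaliplatin samples. Dcn, decorin, the closest relative of biglycan, overlapped between groups (0.36, interval -0.10 to 0.82, adjusted p = 0.289). Ogn stood at 2464, 2979, 2722 and 1842 normalized counts in vehicle and at 1442, 2579, 2911, 1777 and 1836 in oxaliplatin samples. Ogn, osteoglycin, had a log2 fold change of -0.27 (adjusted p = 0.414), with each oxaliplatin sample below the highest vehicle sample. Lum, lumican, ran from 1621 to 3131 in vehicle and 1776 to 4626 in oxaliplatin samples (0.35, adjusted p = 0.515).

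Vcan stood at 164, 113, 97.9 and 208 normalized counts in vehicle and at 192, 277, 331, 679 and 239 in oxaliplatin samples. Vcan, versican, a large proteoglycan that binds hyaluronan, rose close to the threshold (log2 fold change 1.15 with a standard error of 0.34, adjusted p = 0.048). It lost the call without vehicle 1, vehicle 2, vehicle 3, oxaliplatin 2, oxaliplatin 3 and oxaliplatin 5, each left out in turn (adjusted p 0.0582 to 0.136), with voom on estimated reads (0.0773), with a pseudocount of 16 (0.0508), with equal totals outside mitochondrial genes (0.0562), and in limma without trend and robust moderation (0.0676). It was also lost with the erythroid marker score as a covariate (0.112) and in a fit that left out the 4 samples richest in atrial markers (0.185).

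Fmod, fibromodulin, and Comp, cartilage oligomeric matrix protein, are typical of tendon, cartilage and valves, and varied between samples more than between groups. Fmod stood at 883, 586, 91.4 and 526 normalized counts in vehicle and at 83.6, 695, 581, 939 and 267 in oxaliplatin samples. Comp stood at 725, 524, 130.1 and 733 normalized counts in vehicle and at 57.4, 690.5, 515, 719 and 115 in oxaliplatin samples. In both genes vehicle 3, oxaliplatin 1 and oxaliplatin 5 were the 3 lowest samples. The same 3 were lowest in the score of valve, tendon and cartilage markers (a mean over Sox9, Chad, Prg4 and Cytl1 of log2 levels relative to each gene's average), at -0.80, -2.22 and -1.19 against 0.43 or more in the other 6. The part of valve or tendon-like tissue in these levels was not tested. Neither gene passed (-0.05 and -0.64, adjusted p = 0.983 and 0.706).

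Matricellular genes, whose products modulate contact between cells and matrix, rose in 4 of 9. Sparc stood at 17033, 16299, 16871 and 18083 normalized counts in vehicle and at 66635, 26218, 59328, 79909.5 and 77979.7 in oxaliplatin samples. Sparc, a collagen-binding glycoprotein, had the smallest p of the 47 genes and went from 17071 ± 744 to 62014 ± 21709 (SD; 4 and 5 samples) in normalized counts, a 3.39-fold change (log2 fold change 1.76 with a standard error of 0.28, adjusted p = 0.00266). The 4 vehicle samples lay within 16299 to 18083, and oxaliplatin 2 was lowest of its group but still above them. Sparcl1 stood at 6876, 7330.1, 5836 and 5803 normalized counts in vehicle and at 17359.5, 7978, 15872, 14497 and 17063 in oxaliplatin samples. Its relative Sparcl1 rose as well (log2 fold change 1.13 with a standard error of 0.21, adjusted p = 0.00435), and here too oxaliplatin 2 was the nearest to the vehicle samples. Sparc lies on chromosome 11, 55394500 to 55423183, and Sparcl1 on chromosome 5, 104079111 to 104113733.

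Tnc stood at 15.5, 17.9, 20.4 and 45.4 normalized counts in vehicle and at 63.3, 63.4, 223, 164 and 75.3 in oxaliplatin samples. Tnc, tenascin C, is a glycoprotein of embryonic and healing tissue, and each oxaliplatin sample exceeded vehicle 4, the highest vehicle sample (log2 fold change 2.13 with a standard error of 0.43, adjusted p = 0.00693). Cthrc1 stood at 8.37, 8.94, 11.8 and 13.1 normalized counts in vehicle and at 45.4, 30.8, 65.7, 252 and 48.4 in oxaliplatin samples. Cthrc1, a secreted protein of activated fibroblasts, had groups that did not overlap (log2 fold change 2.53 with a standard error of 0.52, adjusted p = 0.00715). It never reached 40.64 normalized counts in a vehicle sample, the lowest maximum of any gene in the deposited table, so it is in the table through its oxaliplatin values, had to differ, and is given as a description. With voom on estimated reads adjusted p was 0.0508 for Tnc and 0.112 for Cthrc1, and Tnc did not pass in a fit that left out the 4 samples richest in atrial markers (1.40, 0.0742).

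The thrombospondins and Cilp did not pass. Thbs1, an activator of latent TGF-beta, ran from 272 to 667 in vehicle and 359 to 1003 in oxaliplatin samples (0.48, adjusted p = 0.348, or 0.0196 with the replicate number as a block). Thbs2 ran from 356 to 594 in vehicle and 428 to 687 in oxaliplatin samples (0.08) and Thbs4 from 184 to 424 in vehicle and 259.8 to 735 in oxaliplatin samples (0.40), with adjusted p of 0.807 and 0.447. Cilp, a matrix protein of cartilage and of heart fibroblasts, ran from 109.7 to 468 in vehicle and 313 to 1662 in oxaliplatin samples (1.25, interval -0.15 to 2.64, adjusted p = 0.22). The groups of these 4 genes overlapped.

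**Figure D3:**
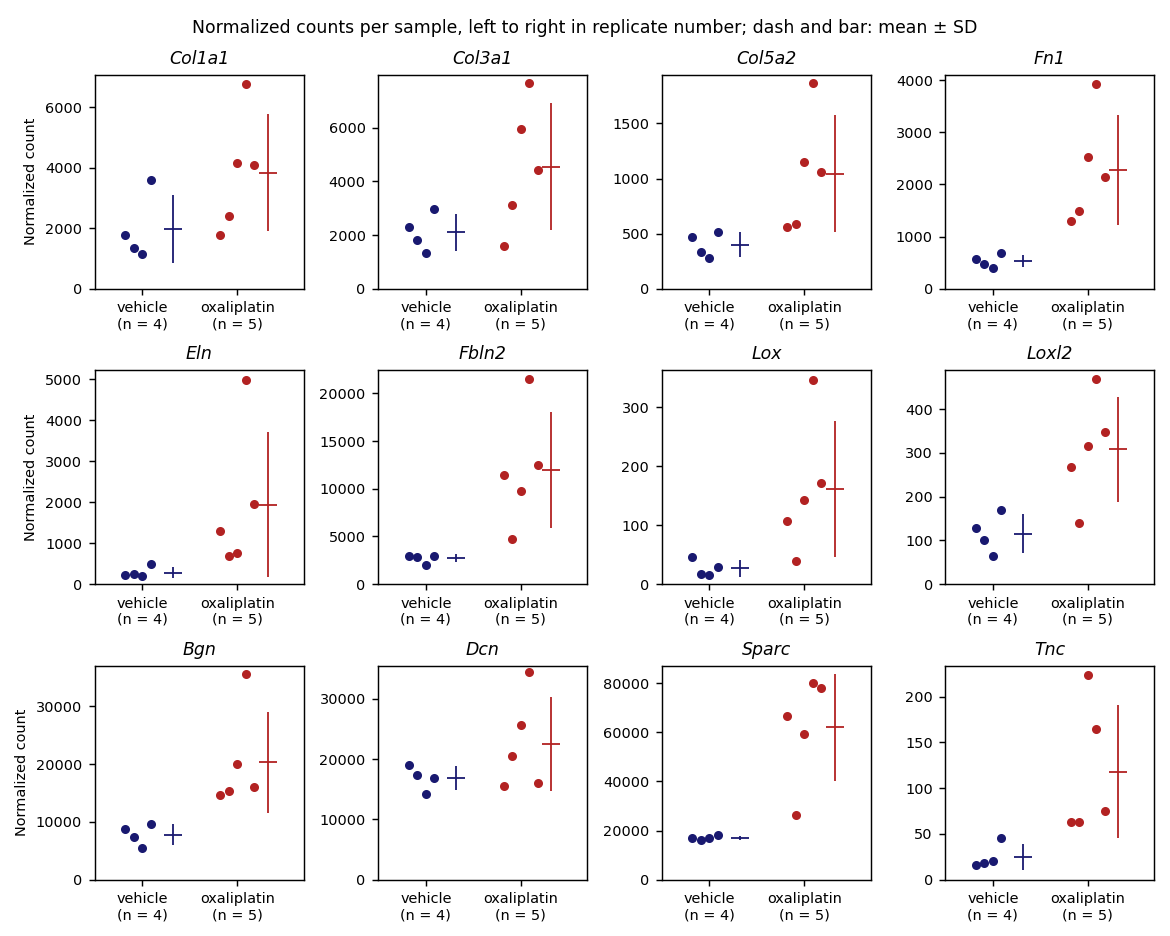
Normalized counts (vertical axes, from 0) of 12 matrix genes in the 4 vehicle samples (dark blue) and 5 oxaliplatin samples (red), in replicate order, with mean and SD to the right of each group. Fn1, Eln, Fbln2, Bgn, Sparc, Tnc and Col5a2 do not overlap between groups, while Col1a1, Col3a1, Lox, Loxl2 and Dcn do.

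The start regions of 4 genes are shown because Tnc, Vcan and Bgn rose while Col3a1 did not pass, and RefSeq (GRCm38.p6) places their starts within 3 bases of the GENCODE M21 ones. Each sequence is the 250 bases before the start, 5′ to 3′ on the gene's strand, and capitals mark matches to 4 motifs searched on both strands. The motifs were the TATA box with the letters TATAAA, the CCAAT box with those 5 letters, the core bound by TEAD factors with the letters GGAATG, and the AP-1 site with the letters TGANTCA.
Tnc, chr4:64047016-64047265, minus strand: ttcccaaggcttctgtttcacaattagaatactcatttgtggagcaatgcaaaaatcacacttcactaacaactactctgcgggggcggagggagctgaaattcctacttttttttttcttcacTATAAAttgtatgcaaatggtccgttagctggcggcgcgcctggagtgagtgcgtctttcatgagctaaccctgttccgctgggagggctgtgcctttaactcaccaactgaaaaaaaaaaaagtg
Vcan, chr13:89742513-89742762, minus strand: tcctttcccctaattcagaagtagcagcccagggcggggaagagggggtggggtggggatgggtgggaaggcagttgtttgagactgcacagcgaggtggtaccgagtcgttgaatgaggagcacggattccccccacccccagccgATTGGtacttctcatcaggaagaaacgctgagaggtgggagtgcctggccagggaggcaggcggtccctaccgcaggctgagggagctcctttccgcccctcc
Bgn, chrX:73483351-73483600, plus strand: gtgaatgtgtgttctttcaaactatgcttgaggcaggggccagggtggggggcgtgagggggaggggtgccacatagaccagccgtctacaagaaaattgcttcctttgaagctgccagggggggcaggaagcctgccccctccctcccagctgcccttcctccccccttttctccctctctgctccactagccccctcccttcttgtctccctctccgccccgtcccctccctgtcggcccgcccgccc
Col3a1, chr1:45311288-45311537, plus strand: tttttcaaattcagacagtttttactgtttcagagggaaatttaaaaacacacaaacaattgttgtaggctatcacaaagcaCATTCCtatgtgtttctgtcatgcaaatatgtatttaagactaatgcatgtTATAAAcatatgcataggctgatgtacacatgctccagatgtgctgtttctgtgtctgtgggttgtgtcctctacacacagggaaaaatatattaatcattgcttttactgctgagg
The Tnc window held a TATA box beginning 126 bases before the start, and the Vcan window a CCAAT box, read on the other strand, beginning 103 bases before it. The Col3a1 window held the TEAD core 168 and a TATA box 117 bases before the start, and the Bgn window held none of the 4. Windows were found for 29 of the 47 genes, without Lox, of which 9 rose. Over the 29 windows the TATA box was in 5, the CCAAT box in 6, the TEAD core in 3 and the AP-1 site in 1. Over all 32851 windows of that length these were in 12.4%, 33.8%, 12.6% and 6.75%. A match is a run of letters and was not tested as a binding site.

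A ratio within a sample cancels what both of its genes share. For 6 ratios an exact two-sided permutation test was run over the 126 arrangements of the samples, adjusted over the 6, with a smallest possible p of 0.0159. Fn1 relative to Pdgfra, a receptor gene of fibroblasts, was 1.29, 1.25, 1.09 and 1.38 in vehicle and 5.11, 2.45, 4.48, 5.99 and 6.86 in oxaliplatin samples (difference in mean log2 ratio 1.91, exact permutation p = 0.0159, adjusted p = 0.0476). All 5 oxaliplatin samples were above all vehicle samples. Pdgfra itself did not pass (0.10, adjusted p = 0.842), but it is 1 of 12 fibroblast markers outside the matrix, of which 5 rose (Pi16 1.17, Cd248 1.05, Thy1 1.03, Dpep1 0.66 and Ms4a4d 0.60) with a median of 0.55 over the 12. Ratios to those other markers were not computed. Col1a1 relative to Pdgfra was 3.99, 3.49, 3.17 and 7.37 in vehicle and 7.06, 3.96, 7.35, 10.3 and 13.1 in oxaliplatin samples, and 2 of 5 oxaliplatin samples were above the vehicle range (difference in mean log2 ratio 0.87, exact permutation p = 0.111, adjusted p = 0.167).

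Col5a1 and Col5a2 are chains of the same collagen V molecules, and their ratio was lower with oxaliplatin. Col5a1 relative to Col5a2 was 0.404, 0.395, 0.368 and 0.568 in vehicle and 0.212, 0.310, 0.243, 0.273 and 0.215 in oxaliplatin samples (difference in mean log2 ratio -0.78, exact permutation p = 0.0159, adjusted p = 0.0476), and 5 of 5 oxaliplatin samples lay below the vehicle range. Col6a3 relative to Col6a1, both chains of collagen VI, was 0.233, 0.194, 0.234 and 0.311 in vehicle and 0.107, 0.253, 0.185, 0.143 and 0.0987 in oxaliplatin samples (difference in mean log2 ratio -0.70, exact permutation p = 0.0952, adjusted p = 0.167), with 4 of 5 below. Col1a1 relative to Col1a2, which join in collagen I, averaged 0.764 ± 0.0828 in vehicle and 0.908 ± 0.178 in oxaliplatin samples (difference in mean log2 ratio 0.23, exact permutation p = 0.206, adjusted p = 0.248). Col1a1 relative to Col3a1 averaged 0.894 ± 0.219 and 0.880 ± 0.165 (difference in mean log2 ratio -0.02, exact permutation p = 0.937, adjusted p = 0.937). With any sample left out, the smallest p the test can give is larger, and adjusted p of the 2 ratios that passed was 0.0571 to 0.107, so those fits say little of their stability.

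Other pairs were chosen after their values were seen and are described without a test. Fn1 relative to Col1a1 was 0.323, 0.359, 0.344 and 0.188 in vehicle and 0.725, 0.619, 0.610, 0.580 and 0.525 in oxaliplatin samples. Bgn relative to Dcn was 0.462, 0.425, 0.384 and 0.569 in vehicle and 0.947, 0.748, 0.776, 1.03 and 0.990 in oxaliplatin samples. In both pairs the gene that rose gained on its partner in each oxaliplatin sample. Col5a2 relative to its chromosomal neighbour Col3a1 was 0.204, 0.182, 0.210 and 0.174 in vehicle and 0.352, 0.186, 0.193, 0.243 and 0.239 in oxaliplatin samples, and oxaliplatin 2 and 3 lay within the vehicle range.

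**Figure D4:**
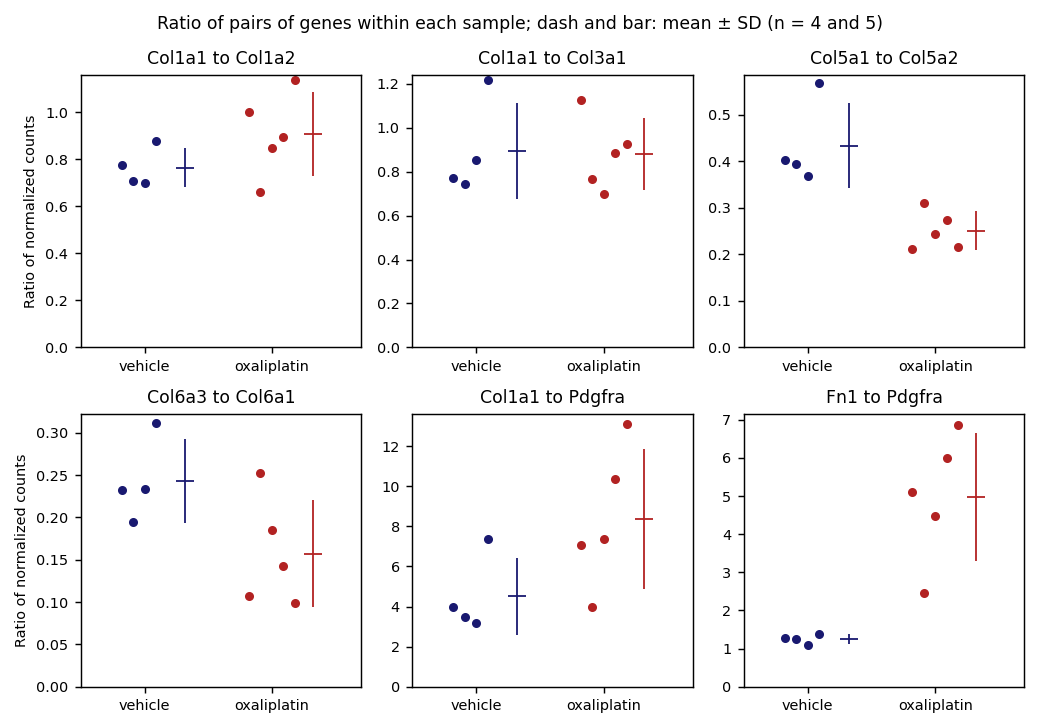
Ratio of normalized counts of 6 pairs of genes within each sample (vertical axes, from 0), vehicle dark and oxaliplatin red, with mean and SD. Fn1 to Pdgfra is above, and Col5a1 to Col5a2 below, the vehicle range in all 5 oxaliplatin samples.

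The 47 genes together took 0.313% to 0.464% of normalized counts outside mitochondrially encoded genes in vehicle samples and 0.606% to 1.26% in oxaliplatin samples. Sparc alone made 15.8% to 19.0% of the summed matrix counts in vehicle samples and 18.1% to 37.4% in oxaliplatin samples. Samples within a group differed in the same direction over many of the genes. Oxaliplatin 4 was the highest sample for 33 of the 47 genes and for 14 of the 17 that rose. Vehicle 4 was the highest vehicle sample for 34 genes, and vehicle 3 the lowest of all 9 for 27. For the 17 genes that rose, the median difference from the vehicle mean was 1.31, 0.75, 1.53, 2.27 and 1.66 on the log2 scale in oxaliplatin 1 to 5. For the 30 that did not pass it was -0.15, 0.29, 0.59, 1.13 and 0.20. Passing depends on these same samples, so the gap between the 17 and the 30 is given as a description only. Among the 30, oxaliplatin 1 went both ways, from -2.91 for Comp to 1.40 for Thbs4.

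Levels can be compared between genes per kilobase of annotated exon (GENCODE M21). In vehicle samples Mgp stood first with 9143 normalized counts per kilobase, followed by Dcn with 8680.4, Sparc with 6274 and Serpinh1 with 5090.1. In oxaliplatin samples Sparc stood first with 22791, before Mgp with 14407, Dcn with 11602 and Bgn with 8398. Eln moved from place 29 to place 18 and Fn1 from 33 to 21 of the 47. Every collagen chain of the 47 was lower per kilobase than Mgp, Dcn, Sparc, Serpinh1 and Bgn in both groups, with Col1a2 at 464 and Col3a1 at 378 in vehicle samples. Col12a1 and Tnc were the 2 lowest in vehicle samples, at 3.14 and 3.19.

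Of 98 further matrix genes measured, from lists of enzymes, proteins and receptors, 16 rose, 2 fell and 80 did not pass, with a median log2 fold change of 0.34. Over all genes tested 9.23% rose and 5.03% fell, and these lists too were chosen with earlier results of these data known. Of 31 other proteoglycans and glycoproteins 7 rose and 0 fell. Aspn stood at 517, 581, 452 and 392 normalized counts in vehicle and at 1369, 848, 2021, 1984 and 1404 in oxaliplatin samples. Ccn2 stood at 670.5, 674, 632 and 1088 normalized counts in vehicle and at 3274, 3713, 1563, 5686 and 2315 in oxaliplatin samples. Ecm1 stood at 2725, 1933, 1737 and 2744 normalized counts in vehicle and at 4735, 4711, 5889, 10533 and 5009 in oxaliplatin samples. Aspn (asporin, a relative of biglycan, 1.60, adjusted p = 0.00175), Ccn2 (connective tissue growth factor, 2.01, 0.0053) and Ecm1 (1.39, 0.00422) had the smallest p and groups that did not overlap. The other 4 that rose were Has1, Srpx2, Postn and Thbs3, named beyond the 3 of smallest p after their values were seen. Has1 never reached 40.64 normalized counts in a vehicle sample, so it too is in the table through its oxaliplatin values, and 6 of the list and 15 of the further genes rose without it. Of 17 genes listed by symbol as other elastic fibre and microfibril genes 4 rose and 0 fell, Mmrn2 (0.72), Efemp2 (0.84), Mfap5 (2.29) and Mfap3. Whether each product is part of such fibres was not tested.

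Of 18 collagen folding and secretion genes outside the 47, 3 rose and 0 fell. These were Fkbp14, a prolyl isomerase of the endoplasmic reticulum (1.27, adjusted p = 0.00249), Ppib, cyclophilin B (0.57, 0.00351), and P4hb, the non-catalytic partner of P4ha1 and P4ha2 (0.41, 0.0263). The P4hb call was lost without vehicle 2, vehicle 3, oxaliplatin 3 and oxaliplatin 4, each left out in turn (adjusted p 0.0526 to 0.082). Of 6 genes of procollagen cleavage and further crosslinking 2 rose, Qsox1 (0.87) and the transglutaminase Tgm2 (0.63), while Adamts2, the procollagen N-proteinase, did not pass (1.38, adjusted p = 0.0924). Of 3 other collagens, Col6a6 (-1.43), Col27a1 (0.63) and Col23a1 (-0.01), 0 passed. Of 24 matrix receptors 0 rose and 2 fell, the integrin chains Itgb6 (-1.32, adjusted p = 0.00431) and Itga7, the laminin receptor chain of muscle (-0.53, 0.0125). Since 5.03% of all genes tested fell, 2 of 24 is not far from that share. Lair1, a collagen receptor of leukocytes, did not pass (-1.10, 0.0581).

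Markers of cells that can make matrix were counted in the same test, in which 9.23% of all genes rose and 5.03% fell. A list in which 1 of 10 rose is near the first share. A marker score averages, over the genes of a list, how far log2(normalized count + 1) in a sample lies from that gene's average. Of 12 fibroblast markers outside the matrix 5 rose and 0 fell (median 0.55), and their sum ran from 10608 to 12342 normalized counts in vehicle and 12774 to 23738 in oxaliplatin samples. The fibroblast score was -0.34, -0.29, -0.46 and -0.10 in vehicle and -0.25, 0.14, 0.52, 0.62 and 0.16 in oxaliplatin samples, overlapping through oxaliplatin 1. Of 10 smooth muscle and pericyte markers 1 rose (median 0.55, sum 15056 to 22336 normalized counts in vehicle and 21915 to 37691 in oxaliplatin samples). Of 10 endothelial markers 2 rose, Pecam1 and Fabp4 (median 0.43, sum 30796 to 38939 normalized counts in vehicle and 38439 to 77851 in oxaliplatin samples). Of 10 cardiomyocyte markers 2 fell and 0 rose (median -0.34), and of 10 macrophage markers 1 rose and 1 fell (median -0.15).

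Scores of epicardial and mesothelial markers did not overlap between the groups. Of 8 markers 4 rose and 0 fell (Krt19, Msln, Wt1 and Krt18, median 2.46), and their sum ran from 211 to 1004 normalized counts in vehicle and 2637 to 5330 in oxaliplatin samples. The score was -0.17, -1.31, -2.46 and -2.38 in vehicle and 0.44, 1.998, 0.74, 1.91 and 1.23 in oxaliplatin samples. The closest samples, vehicle 1 and oxaliplatin 1, were parted mostly by Krt19, at 64.5 and 1733 normalized counts. Wt1 and Msln were also higher in oxaliplatin 1, but Upk3b, Upk1b, Krt8, Krt18 and Lrrn4 were lower than in vehicle 1. Krt19 and Wt1 were highest in oxaliplatin 5, and those lower markers in oxaliplatin 2, so the list did not move as 1. The 2 highest scores were those of oxaliplatin 2, which had the lowest Sparc, Fbln2, Fbn1 and Lox of its group, and oxaliplatin 4, in which the same 4 genes were highest of all 9 samples. Eln, Fbln5, Sparcl1, Loxl2, Loxl3, Plod1 and Cthrc1 were also lowest of their group in oxaliplatin 2. The other matrix genes that rose, Fn1, Bgn, Vcan, Tnc, Pcolce and Col5a2, were lowest in oxaliplatin 1, which had the lowest score of its group. Krt8 was at 0 in 1 vehicle sample and no other marker of the list was at 0. Krt8 never reached 40.64 normalized counts in a vehicle sample, so it too is in the table through its oxaliplatin values. It is not among the 4 that rose, but the median and the score include it. In a fit with this score as a further term, added once the data had been seen, 0 of the 47 genes passed, as did 0.131% of all genes in the higher direction, and the median log2 fold change over the 47 fell from 0.74 to 0.42. With the fibroblast score as a covariate 1 of the 47 passed as higher, Fn1 (1.09, adjusted p = 0.0317), 1 as lower, Col15a1 (-1.92, 0.0256), and the median over the 47 was -0.10. Both scores differ between the groups, so these fits cannot separate score from treatment, and the part of cell shares in the rise of matrix genes was not tested.

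Atrial markers, by contrast, were uneven within both groups, with scores of 2.95, -1.58, -2.63 and -0.73 in vehicle and -4.51, 3.76, 1.27, 3.28 and -1.81 in oxaliplatin samples. With that score as a covariate each of the 17 genes passed, and Col14a1 besides. Leaving out the 4 samples richest in atrial markers (vehicle 1 and oxaliplatin 2, 3 and 4) left 16 of the 47 higher, among them Col8a1 (adjusted p = 0.00245) and 15 of the 17. Erythroid marker scores ran from 0.58 to 1.65 in vehicle samples and from -2.91 to 1.96 in oxaliplatin samples, and with that score as a covariate 15 of the 47 rose, 14 of them among the 17. None of the adipocyte, Schwann, T cell, atrial, valve or erythroid markers passed, 2 of 2 measured B cell markers fell, and 6 of 6 proliferation markers were higher. Of those 6, Ccnb1, Cdk1, Birc5 and Bub1 never reached 40.64 normalized counts in a vehicle sample and are in the table through their oxaliplatin values, which leaves 2 of 2. Cd79a and Cd79b, the 2 B cell markers, never reached 40.64 normalized counts in an oxaliplatin sample. They are in the table through their vehicle values, had to differ, and are given as a description.

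**Figure D5:**
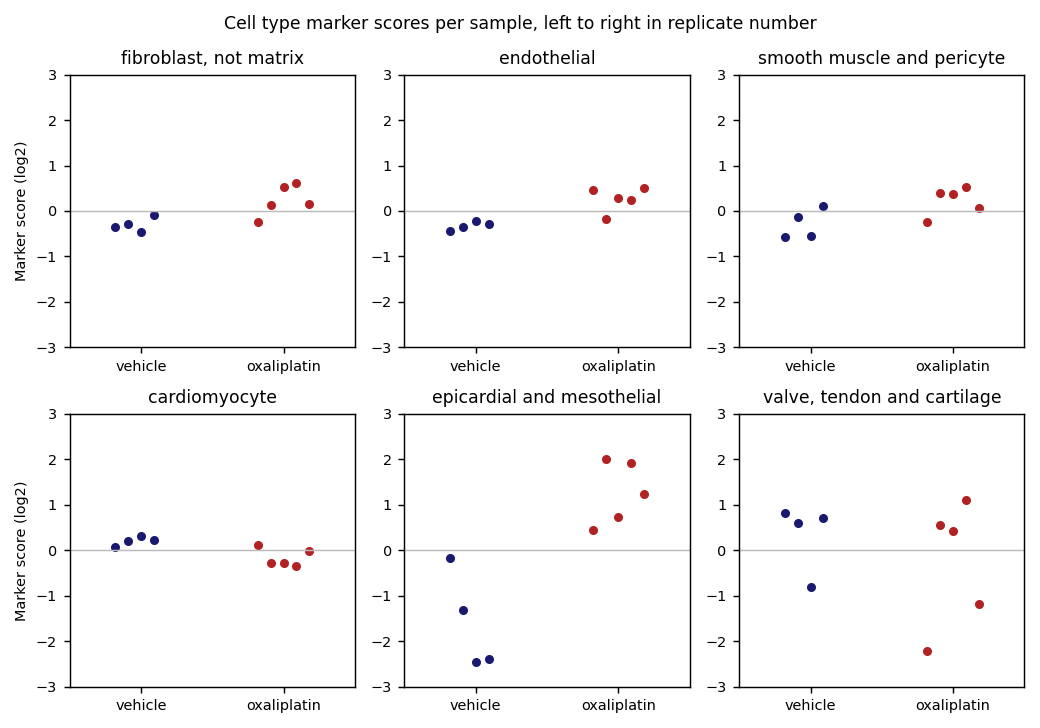
Marker scores (log2, centred over the 9 samples) of 6 cell type lists in vehicle (dark) and oxaliplatin (red) samples, in replicate order. Epicardial and mesothelial scores lie from -2.46 to -0.17 in vehicle and from 0.44 to 1.998 in oxaliplatin samples, and the valve, tendon and cartilage score is lowest in oxaliplatin 1, oxaliplatin 5 and vehicle 3.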

How the data were processed

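Gene expression in heart tissue was taken from 1 deposited table of normalized counts for 13795 gene symbols, a signal per gene and sample that the authors had scaled between samples. The submitters' processing notes list STAR 2.5.1a, Partek and DESeq2 and say nothing of the role of each. Library preparation used a SMARTer kit, per the labels' protocols. For the genome build, the gene models and strandedness, the entry is "not given in the sources used here". Median-of-ratios factors recomputed from the deposited signal were equal over samples (1.003). Values lay on a step per sample, and 73.1% to 75.9% of those between 1 and 1000 estimated reads were within 0.02 of a whole read, so counts were not recovered.

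Groups came from the titles, and 4 vehicle samples were compared with 5 oxaliplatin samples in limma 3.58.1 (R 4.3.3) with trend and robust moderation, two-sided, on log2(normalized count + 1). Genes whose mean over the samples was under 10 were left out. This scale understates fold changes of low genes. Ratios were tested by exact permutation in scipy 1.17.1. The fit was tested on simulated data. Values per sample are given for up to 4 genes of smallest p per role, and for Col1a1, Col1a2, Col3a1, Fn1 and Eln, and up to 3 genes of smallest p are named per further list. Alternatives of voom (limma) on estimated reads, pseudocount, filter, scaling, moderation, weights, block, threshold, covariates and samples are given at the end. Members and lists were chosen with earlier results of these data known. Positions and exon lengths come from GENCODE M21 (GRCm38) through the gene symbol.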

Additional observations from a re-analysis of the deposited data

Results flagged for a closer look

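In each group and gene the highest and lowest samples were set against the others by Dixon's gap over range, which chance exceeds in about 1 of 20 groups. Of 94 groups (47 genes in vehicle and in oxaliplatin) 7 stood out, which is not far from that share. The same samples recur in these groups, so they are not independent, and the counts were not on a log scale. Oxaliplatin 4 was far above the rest of its group for Bgn (35542 normalized counts, next 19965), Vcan (679, next 331), Thbs1 (1003, next 526) and Cthrc1 (252, next 65.7). Vehicle 4 was far above the other vehicle samples for Eln (483, next 236) and Tnc (45.4, next 20.4). Vehicle 3 was far below them for Fbln2 (2059, next 2879). Without oxaliplatin 4 the log2 fold change was 1.10 for Bgn, which passed (limma adjusted p = 0.00329), and 2.04 for Cthrc1. Vcan passed too (0.87, 0.0471), and without vehicle 4 Eln and Tnc had larger fold changes (2.75 and 2.45).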

How the results depend on the processing

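The number of matrix genes that rose, 17, was within 1.5 times of that count in most alternatives, and in no alternative did the fold change of a gene among the 17 turn round. Of genes that did not pass, Col1a1, Col1a2 and Col3a1 were at -0.26, -0.51 and -0.38 with the fibroblast score as a covariate, and the cause was not tested. It was 26 with array weights per sample, where 14.3% of all genes rose, 8 at an adjusted p under 0.01 and 10 with voom on estimated reads. With the epicardial score as a covariate it was 0 and with the fibroblast score 1, where 1 fell. Leaving out each sample gave 11 to 20, with 11 without vehicle 2 and 11 without vehicle 3. Of the 17, 11 passed without each sample in turn, and 9 of these also by voom, Fn1, Fbn1, Fbln2, Fbln5, Sparc, Sparcl1, Plod1, Pcolce and Bgn. Without vehicle 4 and oxaliplatin 1 together, chosen after seeing the data as were voom and the epicardial and fibroblast scores, 23 rose, 14 of them among the 17, and Col1a1, Col1a2 and Col3a1 passed (limma adjusted p = 0.0247, 0.0181 and 0.0233).

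Of further matrix genes, 16 rose in the report. This was 40 with array weights, 33 without vehicle 4 and oxaliplatin 1, 0 with the epicardial and 2 with the fibroblast score, and 13 to 26 without single samples (26 without oxaliplatin 1). The 2 that fell became 4 with a pseudocount of 16, 4 after quantile normalization, 1 with equal totals outside mitochondrial genes, 4 with array weights, 5 with the atrial score, 1 with the erythroid score, 7 without the samples of high atrial score, 0 with the epicardial score, 1 with the fibroblast score and 1 at an adjusted p under 0.01, and 2 to 4 without single samples. Deviations of same-numbered samples from their group means had correlations of -0.27, -0.06, -0.09 and 0.25 for numbers 1 to 4. No pairing was seen, but 4 such correlations cannot exclude one. With the replicate number as a block 18 matrix genes rose, 16 of them among the 17.

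For the ratios, the sign-flip test over 4 pairs and the fit without the samples of high atrial score cannot pass. With a single sample left out, a ratio at the smallest p passes only if other ratios reach it too. With the replicate block the log2 differences were -0.73 for Col5a1 to Col5a2 and 1.78 for Fn1 to Pdgfra, and -1.03 and 2.26 without the samples of high atrial score. Without single samples they ran from -0.86 to -0.65 and from 1.78 to 2.15. Low levels limit Cthrc1 and Tnc, which were not tested with a mean of at least 100.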
